A study of Mus musculus with 14 samples.

Results

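Summits of H3K4me3 at promoters that neighbouring genes share were examined in mouse prefrontal cortex. H3K4me3 is trimethylation of lysine 4 of histone H3, and a summit is the position of highest signal within a called peak. A shared summit was defined as a summit on chromosomes 1 to 19 that lay within 1 kb of a boundary, either the start or the end, of at least 2 different protein-coding RefSeq genes. For each gene pair the summit with the highest mean over the 13 libraries was kept. This rule gave 1886 shared summits out of 153207 summits in all, of which 149378 were on chromosomes 1 to 19. They belonged to 2245 gene pairs and 3585 coding genes out of 20665. Of the shared summits, 1831 lay near exactly 2 coding genes and 55 near 3 or more. A single cluster, the gamma protocadherins on chromosome 18, supplied 276 of the 2245 pairs, and its genes end at a common exon.

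The mark is written by the SET1 and MLL complexes on the nucleosomes that flank the start sites of active and poised genes, and it is read by factors that help to assemble the transcription machinery. Many mammalian genes are arranged head to head, with start sites close together on opposite strands, so that 1 nucleosome-poor stretch serves as the promoter of both genes. Such bidirectional promoters are rich in CpG, mostly lack a TATA box and are common among genes for mitochondria, translation and DNA repair. Other neighbours lie head to tail, where the start of a gene falls near the end of the next, or tail to tail.

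The libraries came from adult male C57BL/6J mice of 10 to 12 weeks, and the labels name no transgene or mutant allele. Social defeat was a short daily meeting with an aggressive CD1 mouse, with housing beside the aggressor between meetings. It lasted 10 days (SDS10, 5 libraries) or 30 days (SDS30, 5 libraries), and the controls (3 libraries) lived in partitioned cages with no aggressor. The tissue was collected 24 hours past the final meeting, and the labels do not say that each library came from a separate animal, so that p-values here measure the spread between libraries.

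Between 4512817 and 10887911 reads per library fell on the summits, and all values below are read counts divided by the authors' size factor of the library. All libraries carry 1 batch date. Summits were found within 2 kb of 5 of 5 excitatory neuron markers (control means 35.0 to 52.5), 2 of 3 inhibitory neuron (17.1 and 34.1), 2 of 4 astrocyte (25.2 and 109), 3 of 5 oligodendrocyte (22.8 to 87.1), 2 of 3 endothelial (44.99 and 56.0), 1 of 4 microglial (18.1) and 1 of 4 non-brain markers (Myod1, 16.2). The highest marker values were at the glial genes Slc1a3 and Mbp. The tissue holds many cell types, and fewer cells that carry the mark cannot be told apart from less mark per cell. SDS30 replicate 2 and SDS10 replicate 2 stood apart at promoters: the median of the shared summits divided by the median of all summits was lowest in the former (2.11) and highest in the latter (2.69), and it lay between 2.32 and 2.54 in the other 11.

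The stretches between start sites are shown for 10 head-to-head pairs that the results below refer to. They were chosen after the values were seen. Each runs from the start of the minus-strand gene, named first, to the start of the plus-strand gene, is written 5′ to 3′ on the plus strand of GRCm38.p6 (the mm10 assembly), and was read from RefSeq promoter sequences. Capitals mark matches to any of 9 searched motifs, given with their shares further on. The first 3 are pairs of widely expressed genes, with the mark on both sides.
Mrpl46/Mrps11 at chr7:78783090-78783130: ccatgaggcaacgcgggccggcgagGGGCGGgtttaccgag
Mrpl32/Psma2 at chr13:14613038-14613241: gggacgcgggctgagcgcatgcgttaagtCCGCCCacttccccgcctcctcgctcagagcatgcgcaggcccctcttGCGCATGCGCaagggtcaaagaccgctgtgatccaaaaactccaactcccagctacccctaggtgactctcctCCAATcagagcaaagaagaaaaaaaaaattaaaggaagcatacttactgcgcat
Chtf8/Utp4 at chr8:106893594-106893639: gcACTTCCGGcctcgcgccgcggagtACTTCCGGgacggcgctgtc

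The next 4 are a pair of antigen-presentation genes, a pair that joins a mitochondrial deacetylase to a proteasome subunit, a ribosomal protein gene with a glycosylation enzyme, and a replication-dependent histone pair. Sirt3/Psmd13 holds none of the 9 motifs, and H2ac8/H2bc8 is shown as an AT-rich contrast with a TATAAA match and only 1 CpG.
Psmb9/Tap1 at chr17:34187331-34187555: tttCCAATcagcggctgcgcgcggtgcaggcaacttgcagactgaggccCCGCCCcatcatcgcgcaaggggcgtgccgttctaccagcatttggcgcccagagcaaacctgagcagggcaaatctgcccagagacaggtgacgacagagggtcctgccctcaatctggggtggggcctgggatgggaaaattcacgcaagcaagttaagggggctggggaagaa
Sirt3/Psmd13 at chr7:140882310-140882393: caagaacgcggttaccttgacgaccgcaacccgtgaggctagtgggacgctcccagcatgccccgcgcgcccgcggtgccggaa
Rpl36al/Mgat2 at chr12:69184068-69184157: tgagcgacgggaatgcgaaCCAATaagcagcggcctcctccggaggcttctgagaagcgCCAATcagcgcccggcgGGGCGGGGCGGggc
H2ac8/H2bc8 at chr13:23571221-23571399: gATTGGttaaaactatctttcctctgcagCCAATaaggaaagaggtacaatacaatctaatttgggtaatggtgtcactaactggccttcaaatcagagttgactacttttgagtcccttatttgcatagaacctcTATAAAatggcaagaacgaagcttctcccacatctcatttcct

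The last 3 are pairs in which the mark lay mostly on the minus-strand gene, although the starts are at most 135 bp apart.
Gemin4/Dbil5 at chr11:76217573-76217612: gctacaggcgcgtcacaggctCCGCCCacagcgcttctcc
Ppp1r15a/Plekha4 at chr7:45526269-45526329: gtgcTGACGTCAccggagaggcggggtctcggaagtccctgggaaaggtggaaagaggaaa
Ndufa8/Morn5 at chr2:36049339-36049472: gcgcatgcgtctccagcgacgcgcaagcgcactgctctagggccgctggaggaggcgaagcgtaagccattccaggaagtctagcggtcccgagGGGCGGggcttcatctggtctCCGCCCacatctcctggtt

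Strand was known for 2944 of the 3585 genes, which set the orientation of most pairs. Head-to-head pairs were the most frequent class, with 897 of 2245 pairs (39.96%) and 887 summits. Head-to-tail pairs numbered 392 (17.5%), tail-to-tail pairs 40 (1.78%), and 39 pairs had both starts on the same strand. For 808 pairs (36.0%, 513 summits) the strand of at least 1 gene was not in the table, and these include the protocadherin pairs. A boundary of a noncoding gene lay within 1 kb of 2.37% of head-to-head summits, 5.41% of all shared summits and 14.3% of summits of single coding genes. Summits of single coding genes are the strongest summits within 1 kb of the start of 7425 genes that share none, and they serve as the comparison throughout.

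The mark was higher at head-to-head summits than at head-to-tail and tail-to-tail summits. The median over the 887 head-to-head summits was 111 ± 1.60 in control libraries (SD, n = 3), 115 ± 5.79 in SDS10 and 107 ± 5.0 in SDS30 (SD, n = 5 each). The 39 summits with both starts on the same strand came close to the head-to-head level, with a control median of 108 ± 2.83. The 388 head-to-tail summits had a control median of 78.5 ± 2.91. The 39 tail-to-tail summits, which have no start site beside them in this table, had 32.6 ± 0.488. The median over the 7425 single-gene summits was 94.3 ± 0.350 in control, against 101 ± 1.52 over all 1886 shared summits and 41.1 ± 0.240 over all 153207. In all 13 libraries the shared median lay above the single-gene median, and the head-to-head median above the head-to-tail one. A value of 100 or more was reached by 71.3% of head-to-head, 29.9% of head-to-tail and 0 of 39 tail-to-tail summits, beside 42.7% of single-gene summits. The strongest of a median of 5 candidate summits was taken per pair and of 6 per single gene, and no test was made of these differences between sets.

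**Figure D1:**
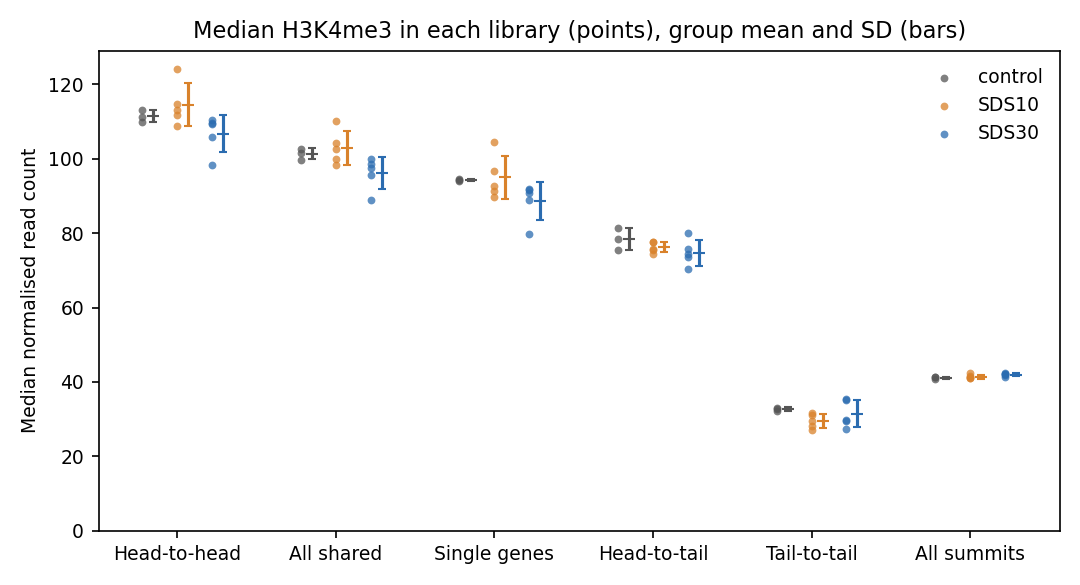
Median normalised read count of each set of summits in each of the 13 libraries (points), with the group mean and SD (bars). Head-to-head summits lie above single-gene summits in every library, and tail-to-tail summits near 30; SDS30 replicate 2 is the lowest library for the shared summits.

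At the top of the range stood the shared promoter of Mrpl46 and Mrps11, which encode proteins of the large and the small subunit of the mitochondrial ribosome (summit chr7:78782919-78782920). Its values were 240, 213 and 197 in control, 188, 181, 289, 242 and 217 in SDS10 and 185, 247, 209, 270 and 215 in SDS30. The groups overlapped fully. Poll/Dpcd, a DNA repair polymerase gene and a gene linked to ciliary function, followed with 208 ± 12.9 in control, and Mrpl37/Cyb5rl with 204 ± 22.6. Ighmbp2/Mrpl21 had 186 ± 27.8, so that 3 of the 6 highest pairs held a gene of the mitochondrial ribosome.

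The 3 lowest summits were all at histone genes on chromosome 13. H2ac23/H4c17 was at 0 in 12 of 13 libraries and H4c18/H2ac24 in 11. Histone genes are near-identical copies, and reads that match several of them may have been lost or split. This was not tested, and the values of histone genes here and below are uncertain. The third was H2bc1/H2ac1. These 3 summits were the ones that did not pass the filter on low values, which left 1883 of 1886 for the tests.

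Among head-to-head pairs the starts were mostly close. In 560 pairs the genes did not overlap, and the gap between starts had a median of 103 bp (quartiles 49.75 and 242.25). It was at most 300 bp in 454 pairs, over 300 and up to 1000 bp in 90 and longer in 16. In the other 337 pairs the annotated genes overlapped at their starts, by a median of 309 bp. The strongest summit lay inside the plus-strand gene in 266 of the 560, inside the minus-strand gene in 259 and between the starts in 35.

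Position followed the gap. No summit of the 274 pairs with starts within 100 bp lay between them, against 2.22% of 180 pairs with a gap over 100 and up to 300 bp, 7.81% of 64 pairs up to 600 bp and 61.9% of 42 pairs beyond 600 bp. The median level was 117, 113 and 112 in the first 3 of these classes and 80.5 in the widest. Pairs with overlapping starts had 110. The longer the gap, the more room there is for a summit between the starts, so the share is a description of the geometry.

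The profile around start sites showed the mark on both sides of head-to-head promoters. Summed over all summits within 1 kb, head-to-head genes with starts up to 300 bp apart (904 genes) had 277 per gene downstream of the start and 274 upstream. Single genes had 280 downstream and 87.8 upstream, and the starting genes of 390 head-to-tail pairs had 273 and 98.2. The downstream amounts of the 3 sets were close to each other. The upstream share was 49.7% for head-to-head genes (49.6% to 49.8% across the 13 libraries), 26.5% for head-to-tail (23.7% to 28.3%) and 23.9% for single genes (21.2% to 26.6%). For the first set both the share near 50% and the upstream amount follow from the arrangement, since the window upstream of each gene is largely the downstream window of its partner. Neighbouring summits can hold the same reads, so these sums are relative.

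**Figure D2:**
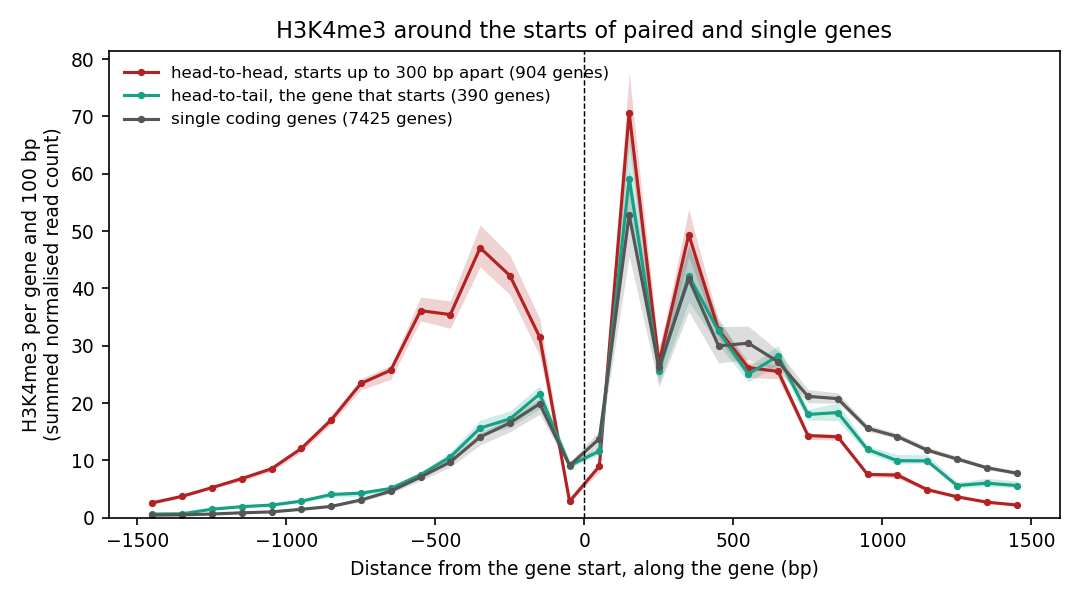
Summed normalised read count per gene in bins of 100 bp against distance from the start site, as the mean over 13 libraries (line) and their range (band), for head-to-head genes, head-to-tail genes and single genes. All sets peak at 100 to 199 bp downstream, and head-to-head genes carry a second hill upstream where the others are low.

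The highest bin lay 100 to 199 bp downstream in each set, with 70.7 per head-to-head gene, 59.2 per head-to-tail gene and 52.8 per single gene. The 100 bp just upstream of the start held 2.87, 9.11 and 9.14, which is the trough of the profile in head-to-head genes. This bin held 0.054, 0.179 and 0.198 summits per gene, so the trough reflects how few summits were called there. At -400 to -301 bp, upstream of the start and inside the partner gene in most head-to-head pairs, the values were 47.1, 15.7 and 14.1. Further into the gene, at 1000 to 1099 bp, head-to-head genes had 7.46, head-to-tail genes 9.97 and single genes 14.2.

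The sides of a head-to-head promoter were often unequal. For 544 pairs with starts 0 to 1000 bp apart, the summits within 1 kb were summed on each gene's side, and 518 pairs had summits on both sides. The plus-strand side was the stronger in 281 of them, and the median absolute log2 ratio was 0.53. In 333 pairs (64.3%) the same side was higher in all 13 libraries, and in the others it changed in at least 1. Sides differed by more than 2-fold in 129 pairs (24.9%), and each of the 129 had the same side higher in 13 of 13 libraries, the libraries whose mean chose them. Sides lay within 1.2-fold in 146 pairs (28.2%), of which 6 had the same side higher in all 13. The uneven pairs had a median of 5 summits on the stronger and 2 on the weaker side, so part of the ratio is the number of called summits. With the strongest summit of each side in place of the sum, a measure chosen after seeing the data, 51 of 518 pairs (9.85%) differed by more than 2-fold. Of the 129 uneven pairs, 45 were over 2-fold by both measures, and the stronger side was the same in 124.

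**Figure D3:**
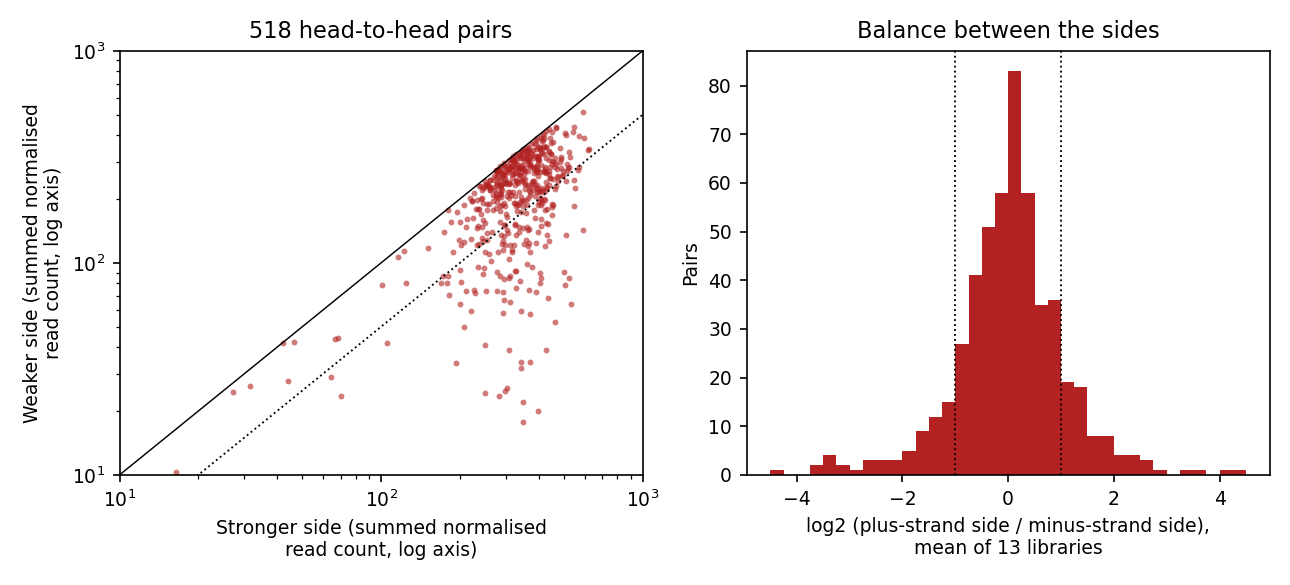
Summed normalised read counts on both sides of 518 head-to-head pairs (mean of 13 libraries) and the histogram of the log2 ratio of the plus-strand over the minus-strand side. On the left, the weaker side is plotted against the stronger on log axes, with a solid line at equality and a dotted line at 2-fold; on the right, the dotted lines mark 2-fold, beyond which 129 of 518 pairs lie.

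The most uneven pair was Stap2/Mpnd, an adaptor gene and a gene of the JAMM protease family, with sums of 17.8 on the Stap2 side and 350 on the Mpnd side. Its log2 ratio was 4.68 in control, 4.27 in SDS10 and 4.15 in SDS30 and ranged from 3.28 to 5.80 over the libraries. Zfp467/Sspo leaned the other way, with 399 at the zinc finger gene and 20.05 at Sspo, which encodes SCO-spondin, a protein secreted by the subcommissural organ. In Hmmr/Nudcd2 Hmmr, a hyaluronan receptor gene active in dividing cells, had 22 and Nudcd2 349. In Pinlyp/Xrcc1 the DNA repair gene Xrcc1 had 283 against 23.6. All 4 pairs had the same stronger side in 13 of 13 libraries.

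Further uneven pairs were of several kinds, and the examples were chosen after their values were seen. Ndufa8, a subunit of respiratory complex I, had 505 against 78.4 for Morn5, and Ndufa5, of the same complex, 297 against 25 for Asb15. Gemin4, of the complex that assembles spliceosomal particles, had 309 against 38.8 for Dbil5, a testis relative of the diazepam binding inhibitor. Coa3, a cytochrome oxidase assembly factor, had 302 against 25.6 for Cntd1, a meiotic crossover gene. Stx8, a syntaxin of endosomes, had 343 against 31.9 for Cfap52, a ciliary gene. Others joined 2 widely expressed genes: Iars2, the mitochondrial isoleucine tRNA synthetase, had 428 against 38.7 for the nucleotidase gene Bpnt1, and the splicing factor gene Srsf7 had 404 against 89.1 for Gemin6. Cenpt, a kinetochore gene, had 68.2 against 434 for Thap11. By the strongest summit of each side, Srsf7/Gemin6 and Cenpt/Thap11 differed by less than 2-fold (log2 ratios of plus over minus side -0.945 and 0.722). The other pairs named in this paragraph stayed over 2-fold by that measure. The starts of Gemin4 and Dbil5 are separated by the 40 bases printed above, with a single reversed GGGCGG match.

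Ppp1r15a, whose product restarts translation after stress by directing dephosphorylation of eIF2alpha, had 531 against 64.2 for Plekha4 across a gap of 62 bp. Slc26a8, a testis anion transporter gene, had 90.1 against 502 for the kinase gene Mapk14. By the strongest summit of each side, this pair differed by less than 2-fold (log2 ratio 0.848). Of the pairs printed first, Mrpl46 had 404 and Mrps11 202, which is just over 2-fold, Mrpl32 had 190 and Psma2 333, Chtf8 372 and Utp4 210, and Sirt3 342 and Psmd13 247. The most even pairs by rule were Aldh6a1/Lin52, with 294 and 296, and Lsm7/Sppl2b, with 290 and 296, and in both the stronger side changed between libraries. In 26 pairs only 1 side held summits, among them Rad51c/Tex14, where the recombination gene Rad51c had 5 summits and the germ cell gene Tex14 had 0. Another was Tas1r1/Nol9, where the umami receptor gene Tas1r1 had 0 and the ribosome biogenesis gene Nol9 had 5.

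The change of the balance with defeat was not tested. The median change of the log2 ratio was 0.0046 in SDS10 minus control and -0.02 in SDS30 minus control, and the median absolute change was 0.106 and 0.107. The median SD of the ratio between single libraries of a group was 0.221. Plus and minus strand are arbitrary labels here, so a median change near 0 says nothing about single pairs.

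The promoter windows of head-to-head genes, 250 bases before to 50 after the start, were rich in CpG. Of 1782 such promoters, the median GC content was 62.3% and the median ratio of observed to expected CpG was 0.836, beside 61.7% and 0.754 for 7425 single-gene promoters and 56.7% and 0.597 for all 16457 coding promoters in the table. A ratio above 0.6 was found in 84.1%, 72.0% and 49.8% of these sets. All motifs were searched on both strands, and a match is a description of letters and not a site at which a factor was shown to bind.

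CCGGAAGT, the core recognised by ETS factors such as GABP, was in 13.2% of head-to-head promoters, 6.42% of single-gene promoters and 5.44% of all promoters. AAGATGGC, the core of the YY1 motif, was in 7.24%, 3.58% and 3.21%. ACTACAA, which begins the motif of the ZNF143 and THAP11 factors, was in 6.06%, 3.81% and 3.96%, and the palindrome of NRF1, searched as 1 exact sequence, in 2.69%, 1.90% and 1.37%. At the promoters of the 390 genes that start in head-to-tail pairs, CCGGAAGT was in 11.5%, close to the head-to-head share, whereas AAGATGGC was in 3.85%, ACTACAA in 3.59% and the NRF1 palindrome in 1.79%, close to the single-gene shares. None of these differences was tested. TATAAA was in 5.27%, 6.96% and 13.5%.

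GGGCGG, the GC box of Sp1, was about as frequent at head-to-head (65.2%) as at single-gene promoters (67.2%) and less so over all promoters (47.3%). CCAAT, the core of the NF-Y motif, was in 40.5%, 37.9% and 39.1%. CACGTG, the E-box, was in 10.8%, 9.91% and 7.97%, and TGACGTCA, the cyclic AMP response element, in 3.82%, 3.31% and 2.40%. The 2 genes of a close pair share part of their windows, so these promoters are not independent of each other.

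Between the starts themselves, 386 pairs had 20 to 250 bases, with a median of 107. GGGCGG lay in 50.5% of these stretches and CCAAT in 35.0%, as in Rpl36al/Mgat2, which holds both motifs more than once. CCGGAAGT lay in 8.29%, and Chtf8/Utp4 carries it reversed at 2 positions within 46 bases. TATAAA lay in 6 stretches (1.55%), and in 88 (22.8%) none of the 9 motifs was found, as in Sirt3/Psmd13.

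Gene families differed in how often their genes had a shared summit, which can lie at the start or at the end of a gene. Of 13205 coding genes with a summit within 1 kb, 27.1% had a shared one, and 13.5% were in a head-to-head pair with known strands. The share was 63.2% for COP9 signalosome and exosome subunits (12 of 19), 52.0% for the mitochondrial ribosome (39 of 75), 46.7% for oxidative phosphorylation (42 of 90), 44.1% for tRNA synthetases (15 of 34) and 43.3% for DNA repair and replication genes (39 of 90). It was 47.1% for the vacuolar ATPase (8 of 17), 36.8% for chaperones (28 of 76), 31.2% for the cytosolic ribosome (24 of 77) and 30.6% for the proteasome (11 of 36). It was low for potassium channels (5 of 66, 7.58%), sodium and calcium channels (2 of 30, 6.67%), homeobox and forkhead factors (9 of 75, 12.0%), collagens, laminins and integrins (7 of 54, 12.96%) and zinc finger genes (50 of 329, 15.2%). No test of these shares was made.

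**Figure D4:**
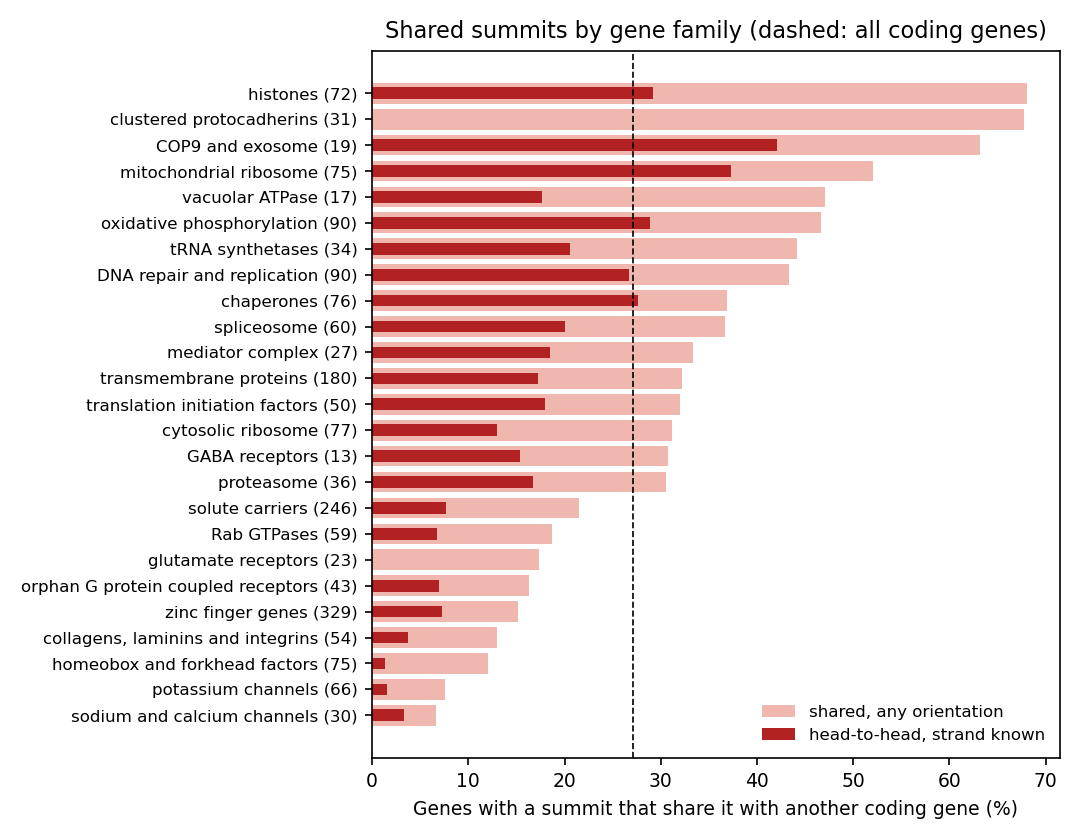
Percentage of genes with a summit that share it with another coding gene, by family, with the head-to-head part drawn inside and the number of genes with a summit in brackets. The dashed line is the 27.1% over all coding genes; ion channels and developmental factors lie at the low end, mitochondrial and RNA-processing complexes near the high end.

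Histones (49 of 72, 68.1%) and clustered protocadherins (21 of 31, 67.7%) had the highest shares, and members of these families lie side by side. Both genes of a pair were histones at 24 summits. H2ac8/H2bc8, whose stretch is printed above, had 32.4 ± 7.74 in control, 36.6 ± 9.00 in SDS10 and 41.0 ± 7.97 in SDS30 (SD, n = 3, 5 and 5). Clustered protocadherins had 1 such summit, the one that supplied 276 of the 2245 pairs. Outside these 2 families a summit shared within the family was rare. Among the 1694 shared summits whose genes have established names, Mrpl46/Mrps11 was the only one with 2 mitochondrial ribosome genes, and Hspd1/Hspe1 and Hspa1a/Hspa1l were the only ones with 2 chaperone genes. The zinc finger genes formed 7.

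Genes with a shared summit had the higher values over all coding genes, but several housekeeping families showed no such difference. Over all coding genes, the strongest summit within 1 kb of a gene had a median of 109 in genes with a shared summit and 92.6 in the others. This strongest summit need not be the shared one. In oxidative phosphorylation genes the medians were 118 and 118, in mitochondrial ribosome genes 116 and 118 and in tRNA synthetase genes 128 and 127. In DNA repair and replication genes they were 117 and 96.9, and in solute carrier genes 110 and 86.4. Histone genes went the other way, with 43.7 in genes with a shared summit and 63.1 in the others.

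Spread between libraries was smaller at higher levels, and in each class of level slightly smaller at shared than at single-gene summits. At levels of 20 to 50 the median within-group SD of the log2 value was 0.388 at 261 shared and 0.410 at 1026 single-gene summits. At levels of 80 to 110 it was 0.225 at 565 shared and 0.229 at 2685 single-gene summits, and at 140 to 200 it was 0.178 and 0.184. The difference between the sets was not tested. Among shared summits with a mean of at least 20, Miip/Fv1, Ints13/Fgfr1op2 and Pnpla7/Nsmf varied least. Miip/Fv1 ranged from 139 to 155 in control, 130 to 143 in SDS10 and 122 to 148 in SDS30. Iqschfp/Iqcj, Spag16/Vwc2l and Shox2/Rsrc1 varied most, and Iqschfp/Iqcj had values of 14.7, 40.8 and 34.4 in the 3 control libraries. Iqschfp is the readthrough gene of Iqcj and Schip1, so this pair is annotated as overlapping.

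The first comparison asked whether 10 days of defeat altered the mark at shared promoters. In limma with Benjamini-Hochberg adjustment over all 152270 tested summits, 0 shared summits were called at an adjusted p of 0.05, beside 0% called of all summits, and the smallest adjusted p was 0.9999. edgeR and DESeq2 also called 0. At an unadjusted p under 0.05, 66 of 1883 shared summits passed (44 higher and 22 lower; 64 in edgeR and 80 in DESeq2), which is 3.51% beside 3.21% of all summits (1.99% higher and 1.22% lower). Without control replicate 2 the count was 39, and without control replicate 3 it was 36. Leaving out each library in turn gave counts from 36 to 96. The median log2 fold change was 0.02 over the shared summits, 0.01 over the single-gene summits and 0.00 over all summits, and without SDS10 replicate 2 the shared median was -0.00024. For 96.7% of shared summits the 95% interval of the change lay within 2-fold either way. In simulated data with 200 shared summits changed by 2-fold, this test recovered 76.5% of them, and 98% at 3-fold. The simulated libraries had no shift common to the promoters of a library, unlike SDS10 replicate 2 and SDS30 replicate 2. Recovery in the real libraries may therefore differ.

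All SDS10 libraries lay above all controls at 38 shared summits (2.02%), beside 1.59% of all tested summits and 1.73% of single-gene summits. They lay below at 25 (1.33%), beside 1.4% of all tested and 1.31% of single-gene summits. The 4 higher pairs with the smallest p-values follow, none of which passed adjustment. The summit near Topors, Smim27 and Ndufb6, a ubiquitin ligase gene beside a complex I subunit gene (chr4:40269705-40269706), lies at a head-to-head pair of starts and near the end of the remaining gene. It is thus not the promoter of all of them. The summit had 129, 103 and 118 in control and 135, 178, 172, 149 and 157 in SDS10, with SDS30 at 109 to 155. The groups of control and SDS10 did not overlap, and the log2 fold change was 0.44 ± 0.14 (SE; limma, unadjusted p = 0.0029). Kif24/Nudt2, a ciliary kinesin gene with a dinucleotide hydrolase gene, had 102 to 126 in control, 139 to 155 in SDS10 and 104 to 119 in SDS30.

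Orc3/Rars2, an origin recognition subunit with the mitochondrial arginine tRNA synthetase, had 133, 106 and 136 in control, 158, 193, 154, 152 and 159 in SDS10 and 114 to 137 in SDS30. Wbp1/Ino80b, the latter a subunit of the INO80 chromatin remodeller, had 84.8 to 106 in control and 110 to 154 in SDS10. At Kif24/Nudt2 and Orc3/Rars2 the SDS10 libraries also lay above all SDS30 libraries. The SDS10 values of these comparisons are the same libraries, so the 2 contrasts are not independent.

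The 4 lower pairs had unadjusted limma p-values of 0.014 to 0.029. Gpr137/Bad, the latter a pro-apoptotic BCL2 relative, had 142, 147 and 152 in control and 108 to 126 in SDS10 (log2 fold change -0.32 ± 0.13, SE). Prkar1b/Dnaaf5, a neuronal regulatory subunit of protein kinase A with a dynein assembly factor, had 106 to 120 in control, 55.9 to 104 in SDS10 and 89.1 to 95.7 in SDS30. Git2/Ankrd13a and Nrm/Ppp1r18 had control means of 93.7 and 117 and SDS10 means of 73.0 and 90.1. Each of these 4 had SDS10 libraries entirely below the controls.

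The second comparison asked the same after 30 days. Again 0 shared summits were called by limma (smallest adjusted p 1.0, 0% called of all summits), edgeR or DESeq2. At an unadjusted p under 0.05, 84 passed, 15 higher and 69 lower (87 in edgeR, 103 in DESeq2), and this 4.46% stands beside 3.41% of all summits (1.44% higher and 1.97% lower) and 5.44% of single-gene summits. Without SDS30 replicate 2 the count was 55, and without SDS30 replicate 5 it was 138. The median log2 fold change was -0.05 over shared, -0.08 over single-gene and 0.00 over all summits, and 63.0% of shared summits had a negative value. With offsets that remove a trend against the mean level, the median over shared summits was 0.0068 and 48.5% were negative. For 96.8% of shared summits the 95% interval lay within 2-fold, and the simulation recovered 84.5% of 2-fold changes.

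All SDS30 libraries lay below all controls at 57 shared summits (3.03%), beside 1.74% of all tested summits and 3.84% of single-gene summits. They lay above at 7 (0.372%), beside 1.23% of all tested and 0.459% of single-gene summits. Sart3/Iscu, a splicing recycling factor with the scaffold of iron-sulfur cluster assembly, had 168, 195 and 185 in control, 138 to 188 in SDS10 and 138, 103, 117, 133 and 143 in SDS30. The SDS30 values lay under every control value, with a log2 fold change of -0.53 ± 0.13 (SE; limma, unadjusted p = 0.00028, adjusted p = 1.0). Nt5c1b/Rdh14, a nucleotidase with a retinol dehydrogenase, had 133, 162 and 154 in control, 129 to 164 in SDS10 and 118, 70.3, 104, 91.5 and 120 in SDS30. It was below both other groups without overlap.

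Timm23/Parg, a subunit of the inner mitochondrial import channel with the enzyme that removes poly(ADP-ribose), had 134 to 150 in control and 76.1 to 129 in SDS30. Rita1/Ddx54, a Notch pathway modulator with an RNA helicase, had 167 to 181 in control, 127 to 160 in SDS10 and 109 to 146 in SDS30. Both SDS30 ranges lay below the controls, and the lowest libraries at Timm23/Parg were SDS30 replicate 4 (76.1) and replicate 2 (82.8). Zfp319/Usb1, among the 6 highest pairs in control, had a mean of 187 ± 25.2 there, 155 ± 26.9 in SDS10 and 124 ± 29.0 in SDS30, and its groups overlapped.

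Of the higher pairs, Cnppd1/Retreg2, the latter a receptor for the turnover of endoplasmic reticulum, had 108, 88.6 and 111 in control, 121 to 138 in SDS10 and 119 to 135 in SDS30. Both defeated groups lay above every control. Rnf123/Mst1, whose summits all lie on the Rnf123 side, had 35.6 to 42.4 in control and 47.8 to 64.0 in SDS30. Sh3bgrl3/Cep85 and Wdr24/Jmjd8 had control means of 75.8 and 93.2 and SDS30 means of 97.2 and 116.

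The third comparison set 30 against 10 days of defeat. limma called 0 shared summits (smallest adjusted p 0.963, 0% called of all summits), as did edgeR and DESeq2. At an unadjusted p under 0.05, 168 shared summits passed, 14 higher and 154 lower in SDS30 (150 in edgeR, 168 in DESeq2). The 168 are 8.92%, beside 5.12% of all summits (2.01% higher and 3.11% lower) and 9.77% of single-gene summits. The share lower among the shared summits was 8.18%, against 3.11% of all summits and 9.02% of single-gene summits. The median log2 fold change was -0.07 over shared, -0.08 over single-gene and 0.00 over all summits. With the level trend removed the count fell from 168 to 104 and the median was 0.0038. Of the head-to-head summits, 10.8% passed the unadjusted threshold and 74.4% had a negative value, with a median of -0.10, whereas over the 39 tail-to-tail summits the median was 0.16. With the level trend removed, the head-to-head count fell from 96 to 61 and 51.0% were negative. The medians were then -0.0031 for head-to-head and 0.15 for tail-to-tail summits. Both libraries that stand apart belong to these groups. The count over all shared summits was 130 without SDS10 replicate 2 and 115 without SDS30 replicate 2, with 0 called each time. Leaving out each library in turn gave counts from 115 to 193.

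All SDS30 libraries lay below all SDS10 libraries at 22 shared summits (1.17%), beside 0.387% of all tested summits and 0.946% of single-gene summits. They lay above at 2 (0.106%), beside 0.334% of all tested and 0.149% of single-gene summits. Commd3/Bmi1, the latter a Polycomb repressor gene, had 61.5, 84.7, 48.9, 77.9 and 63.4 in SDS10 and 42.3, 28.1, 43.1, 35.9 and 45.7 in SDS30, with control at 42.6 to 64.3. Its log2 fold change was -0.77 ± 0.19 (SE; limma, unadjusted p = 0.00040, adjusted p = 0.963). Tst/Mpst, neighbouring sulfurtransferase genes, had 135 to 157 in SDS10 and 104 to 119 in SDS30. The higher ones were Camkv/Traip, at 15.2 to 26.8 in SDS10 and 28.2 to 46.9 in SDS30, and Eme2/Nme3, at 53.6 to 74.8 and 75.2 to 86.2.

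**Figure D5:**
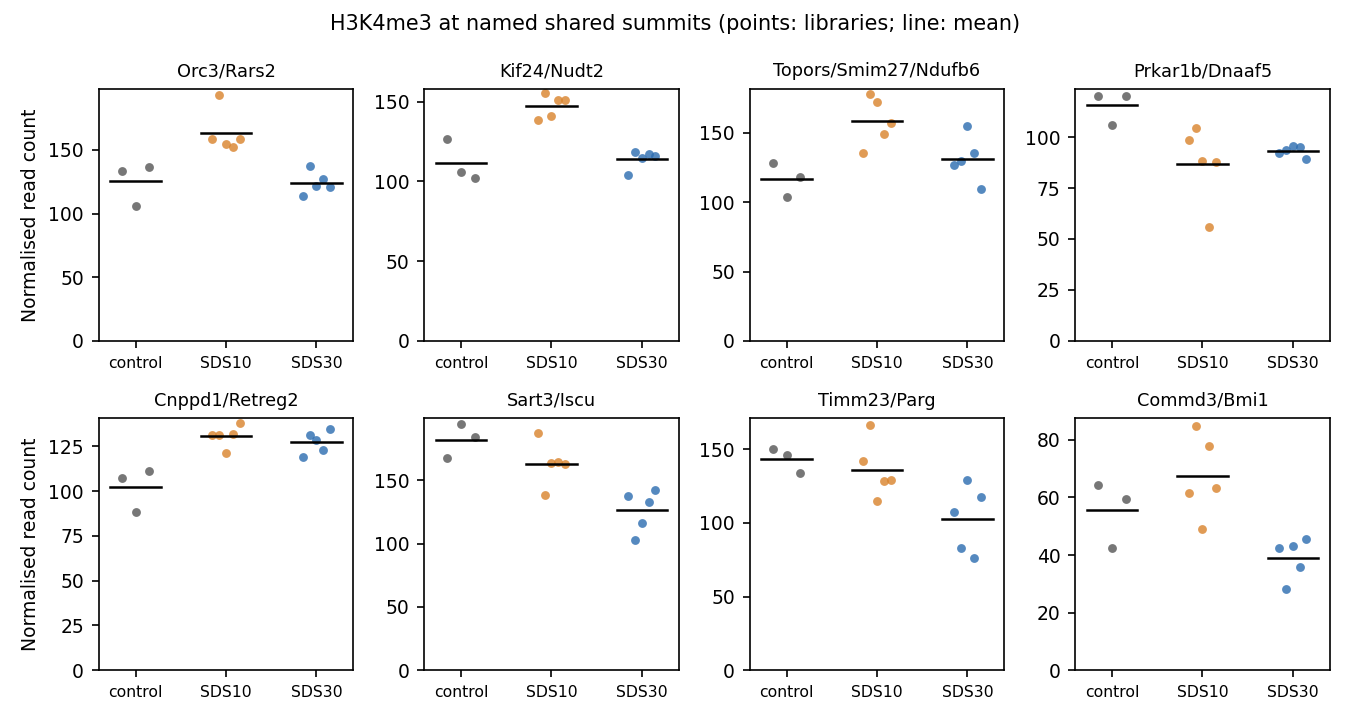
Normalised read counts of 8 named pairs in each library, by group, with the group mean. Points of SDS10 or SDS30 that lie wholly above or below the control points are the pairs whose groups did not overlap; none was called after adjustment.

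Of 20 gene pairs listed for their head-to-head arrangement, 17 had a shared summit, 11 of them with both strands in the table. The other 3 had none, among them Tbp/Psmb1 and Acadvl/Dlg4, whose nearest boundaries lie 1612 and 1775 bp apart in the table. The 17 control means ran from 60.4 to 156 with a median of 119. The highest was Mrps12/Sars2, a mitochondrial ribosome gene with the mitochondrial serine tRNA synthetase, and the lowest Sgce/Peg10, an imprinted pair. At an unadjusted p under 0.05, 1 of the 17 passed at 10 days and 1 at 30 days, both against control, and 2 between the defeated groups. Over all tested summits 3.21%, 3.41% and 5.12% passed, and counts of 1 or 2 do not set these pairs apart from that.

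The 1 that passed at 10 days was Psmb9/Tap1, an immunoproteasome subunit with the peptide transporter of antigen presentation. Its summit (chr17:34187577-34187578) had 105, 77.3 and 88.3 in control, 96.0, 130, 137, 122 and 140 in SDS10 and 104, 109, 130, 78.7 and 79.0 in SDS30. The lowest SDS10 value lay under the highest control value, so the groups overlapped, and the log2 fold change was 0.47 ± 0.17 (SE; limma, unadjusted p = 0.0096, adjusted p = 0.9999). Tsc2/Nthl1, a growth regulator with a DNA glycosylase, had 156 ± 10.5 in control, 131 ± 7.57 in SDS10 and 128 ± 20.5 in SDS30. Hspd1/Hspe1, the mitochondrial chaperonin pair, had 121 ± 6.61, 110 ± 7.35 and 114 ± 21.1.

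In the gene families, the pairs with the smallest p-values in either comparison with control held to the same pattern of small differences. In SDS10, Exosc1/Zdhhc16, an exosome subunit with a palmitoyltransferase, had 119 to 127 in control and 134 to 181 in SDS10. In SDS30, Rpl7/Rdh10, a ribosomal protein gene with a retinol dehydrogenase, had 73.8 to 90.8 in control and 49.4 to 69.6. Nfkbie/Slc35b2, an inhibitor of NF-kappaB with a sulfate donor transporter, had 92.9 to 118 in control and 56.2 to 79.0 in SDS30. In these 3 the groups named did not overlap, and none passed adjustment.

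Rpl36al/Mgat2 had its lowest value in a library that stands apart. It had 114, 109 and 96.3 in control, 141, 145, 134, 156 and 121 in SDS10 and 128, 49.98, 104, 115 and 117 in SDS30, where SDS30 replicate 2 gave the 49.98. Nlgn2/Tmem256, which holds the gene of the adhesion protein of inhibitory synapses, had 109 to 120 in control and 114 to 179 in SDS30, and its groups overlapped. Of the glutamate receptor genes, Grin2c/Fdxr had 29.0 ± 1.87 in control and Grik5/Zfp574 35.5 ± 5.67 (SD, n = 3).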

How the data were processed

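Micrococcal nuclease released mononucleosomes, which were immunoprecipitated for H3K4me3 and sequenced, per the labels' protocols, as single reads of 100 bp. Trimmomatic, Bowtie2, MACS2 and DESeq2 with mm10 and GRCm38.p5 are named per the submitters' processing notes; which did what, their versions and the counting window were not given in the sources used here. 1 deposited table gives a normalised signal per summit and library, made by the authors from 1 summit set; 100% of values were whole multiples of 1 read per library (tolerance 0.001), so reads were recovered by dividing out this step. The deposited peak score was not used. The input library was not analysed here.

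log2(value + 1) of all 13 libraries entered 1 limma fit with a trend (3.58.1, R 4.3.3; a mean per group, no covariate), after edgeR's filterByExpr on recovered reads (152270 summits kept, 937 left out); p-values were adjusted by Benjamini-Hochberg over all of them, with a threshold of 0.05. Fold changes on this scale understate those of low summits. edgeR (4.0.16) and DESeq2 (1.42.0) on recovered reads were alternatives. The fit was tested on simulated data. Gene boundaries, strands and promoter sequences came from RefSeq tables of GRCm38.p6. Symbols that are gene models or clones were not named. The text names, per comparison, the 4 pairs per direction with the smallest p-values whose groups do not overlap (2 existed in 1 direction); the 6 highest and 3 lowest in control; the 4 most uneven and 2 most even; the 3 most and 3 least variable; a list of 20 pairs; up to 2 pairs per family of 25; and pairs said to be chosen afterwards. Not every pair selected this way is reported here. The members, lists and rules were chosen with earlier results of these data known. Reads on summits numbered 4512817 to 10887911 per library, and no interval here rests on counting error alone.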

Additional observations from a re-analysis of the deposited data

Results flagged for a closer look

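In groups of 5 libraries, 6 results had 1 library farther from the others than a gap test at the 95% level allows, and chance flags about 1 in 20 groups. SDS30 replicate 2 stood below the rest of its group in 3 measures of promoters: its median over single-gene summits was 79.66, its ratio of the shared median to the median of all summits 2.111, and that ratio for head-to-head summits 2.333. SDS10 replicate 2 was the high library at Orc3/Rars2 (193.4). SDS30 replicate 1 was low at Kif24/Nudt2 (104.1), and SDS30 replicate 5 was low at Ppat/Paics (117.4).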

How the results depend on the processing

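No summit was called in any of the 3 comparisons under any alternative: pseudocounts of 0.5 and 5, no filter, TMM scaling, offsets from a loess trend, edgeR, DESeq2, a replicate block, log2 depth as a covariate (chosen after seeing the data), other distances, other choices of summit, and leaving out each library. Other distances and other choices of summit only select other summits from the main fit, which called 0, so their result was fixed in advance. Where a group kept 2 controls the fit pooled its spread with the other groups. With loess offsets the median log2 fold change of shared summits went from -0.05 to 0.006825 in SDS30 against control and from -0.07 to 0.003819 in SDS30 against SDS10; the offsets remove the trend against level by construction. Leaving out 1 library moved the medians between -0.0002357 and 0.03376 (SDS10 against control), between -0.06817 and -0.03698 (SDS30 against control) and between -0.08881 and -0.05457 (SDS30 against SDS10). With all summits within 1 kb in place of the strongest, the control median was 63.81 for shared and 56.93 for single-gene summits; with boundaries within 500 bp or 2 kb the latter was 91.10 or 94.86. With the strongest summit of each side, 9.846% of head-to-head pairs were uneven by over 2-fold. Proteasome and mediator genes were below the share of all genes at 500 bp (19.44% and 22.22%), and GABA receptor genes at 2 kb (30.77%). With the replicate number as a block, the medians were 0.02949, -0.0485 and -0.0749 and 0 were called. Deviations of libraries with the same number correlated from -0.2874 to 0.3677, and those of libraries with different numbers from -0.426 to 0.3816. This gave no sign that the numbers pair the libraries, but 11 same-number pairs are too few to exclude it. In simulated data for SDS10 against control, drawn without a shift common to the promoters of a library, 76.5% of 2-fold changes were recovered. Smaller changes may be missed at this depth.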
